A study of Mus musculus with 9 samples.

Results

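The 7 tetraspanins Cd9, Cd37, Cd53, Cd63, Cd81, Cd82 and Cd151 were followed through the brain myeloid cells of mice whose microglia had been depleted and were returning. They were taken by symbol, as the family members known from leukocytes and microglia, and all 7 were found among the 31053 genes of the files, with UMIs in the microglia-like cells of every library; 24 other genes of the family were kept as a list beside them. Live cells carrying CD11b, a surface integrin of myeloid cells, were sorted by FACS from brains without cerebellum and profiled with the 10x Genomics 3′ v3 kit, in 9 libraries. All mice were female C57BL/6J (C57BL/6 in the labels) and 5 months old: Ctrl mice received no treatment, D0 mice received PLX5622, an inhibitor of the receptor CSF1R on which microglia depend, in the diet at 1200 mg/kg over 14 days, and D2 mice were fed the same and afterwards control diet, over 2 days. A Ctrl library held 1 brain and a D0 or D2 library 2 pooled brains, and p-values measure the spread between libraries. The D2 library numbered 3, D2-3, was left out by the study and is given here beside the results only.

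Tetraspanins are small proteins that cross the membrane 4 times and gather integrins, immunoglobulin superfamily proteins and each other into patches of the membrane. Some organise adhesion and fusion at the cell surface, whereas CD63 moves between the surface and late endosomes and lysosomes and is a classical marker of the vesicles that cells release. In the brain, CD9, CD63 and CD81 are familiar from extracellular vesicles, and CD37 and CD53 from cells of the blood lineage.

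The 7 genes lie on 5 chromosomes of GRCm38 (GENCODE vM21). Cd82 lies on the minus strand of chromosome 2 (93419111 to 93463140), Cd53 on the minus strand of chromosome 3 (106759921 to 106790149), Cd9 on the minus strand of chromosome 6 (125460266 to 125494791) and Cd63 on the plus strand of chromosome 10 (128900989 to 128912822). Chromosome 7 carries the rest: Cd37 on the minus strand (45233632 to 45239115), Cd151 (141467392 to 141471473) and Cd81 (143052739 to 143067934) on the plus strand. Some members have another tetraspanin close by: Tspan4 is 3.77 kb from Cd151, Tspan32 is 33.1 kb from Cd81 and Tspan18 is 84.6 kb from Cd82. Cd37 overlaps Tead2, a gene on the other strand; the 3′ kit keeps the strand of each transcript.

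The promoter windows are shown because the cell classes below divide the members into those held by blood-lineage cells and those found more widely. Cd82 is among those found more widely. RefSeq windows of GRCm38.p6, running from 250 bases before a transcription start to 50 after it, were found for all 7 genes, 1 each for Cd9, Cd37, Cd53, Cd63 and Cd81, 2 for Cd151 and 4 for Cd82. They were searched on both strands for GAGGAAGT, the kind of ETS site that PU.1, a transcription factor of myeloid and B cells, binds, and for its shorter core GGAAGT, which every such site contains. The E-box CACGTG was searched likewise, as were the AP-1 site TGACTCA, the GC box GGGCGG and, for TATA boxes, TATAAA. GAGGAAGT was found in the windows of Cd37 and Cd53 and in 1 of the 4 windows of Cd82, and in none of Cd9, Cd63, Cd81 and Cd151; it stands in 3.20% of all 32851 windows. In the following windows, written 5′ to 3′ on the strand of the gene, capitals mark that motif, on the written strand in Cd82 and as its reverse complement in Cd37 and Cd53. The window of Cd63 is shown for comparison, since Cd63 is the member that rose in treated mice, and holds only the shorter GGAAGT. It lies inside the span of the gene given above, and the upstream end of that span was not searched.
Cd37, chr7:45238790-45239089: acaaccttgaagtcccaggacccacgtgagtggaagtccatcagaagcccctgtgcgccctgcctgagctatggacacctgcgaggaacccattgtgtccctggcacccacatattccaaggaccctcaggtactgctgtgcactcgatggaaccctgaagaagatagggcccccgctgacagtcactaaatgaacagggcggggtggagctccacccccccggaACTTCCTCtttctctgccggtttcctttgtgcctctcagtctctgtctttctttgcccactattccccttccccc
Cd53, chr3:106790100-106790399: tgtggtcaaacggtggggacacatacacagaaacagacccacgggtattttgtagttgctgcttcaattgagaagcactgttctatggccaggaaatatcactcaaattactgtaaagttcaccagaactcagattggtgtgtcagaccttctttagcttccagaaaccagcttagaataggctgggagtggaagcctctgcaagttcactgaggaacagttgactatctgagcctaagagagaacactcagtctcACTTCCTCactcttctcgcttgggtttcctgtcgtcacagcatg
Cd82, chr2:93461802-93462101: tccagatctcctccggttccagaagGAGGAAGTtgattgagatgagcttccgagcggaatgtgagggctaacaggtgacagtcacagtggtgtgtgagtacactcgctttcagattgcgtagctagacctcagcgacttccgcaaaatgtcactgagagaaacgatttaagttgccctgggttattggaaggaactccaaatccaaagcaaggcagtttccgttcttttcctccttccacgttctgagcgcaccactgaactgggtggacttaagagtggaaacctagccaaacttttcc
Cd63, chr10:128909095-128909394: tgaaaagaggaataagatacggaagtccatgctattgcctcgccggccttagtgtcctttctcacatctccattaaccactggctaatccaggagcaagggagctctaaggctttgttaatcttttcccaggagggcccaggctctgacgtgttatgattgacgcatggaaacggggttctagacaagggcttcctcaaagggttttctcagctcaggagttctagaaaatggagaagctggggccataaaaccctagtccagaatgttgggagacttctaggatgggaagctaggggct
The motif begins 25 bases before the start in Cd37 and 225 before it in Cd82, and at base 7 of the transcript in Cd53. The shorter GGAAGT, in 23.8% of all windows, was found in Cd37, Cd53, Cd63 and Cd82, and the GC box, in 35.7%, in Cd9, Cd37, Cd81, Cd82 and Cd151. The TATA letters (13.6%) were found in Cd81 alone and the E-box (7.15%) in Cd37 alone, and the AP-1 site (5.20%) in no member. These are matches of letters, and binding was not measured.

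With the cell filters of the study, 28655 cells remained in the 8 libraries used, with 20257894 to 61230741 UMIs per library and medians of 4810 to 9243 UMIs per cell. Clusters were drawn without any tetraspanin gene and named by marker genes: 22141 cells were microglia-like, and all 12 microglia markers were present in them. D2-3 stood apart, with 645 microglia-like cells, a summed level of the microglia markers of 9477 CPM (UMIs of a gene per 1e+06 UMIs of the class) against 18649 to 36132 in the 8 libraries, and a summed level of 8 mitotic markers of 2714 CPM against 40.1 to 1271. Fewer than 1% of barcodes of any library (21 to 45 barcodes) were shared with another library. By their file headers, Ctrl-2, Ctrl-3 and D2-3 were made with Cell Ranger 3.1.0 and the other libraries with 3.0.2, so that 2 of the 3 Ctrl libraries but none of the D0 and D2 libraries used had the later version.

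Across cell classes, the members fell into different patterns, given as means ± SD over the libraries with at least 20 cells of a class. These are descriptions with no test, since the classes are clusters. The lymphoid-like class held the NK-cell markers Nkg7 (3780 CPM), Ncr1 (875) and Klrb1c (664), with Trbc2 at 341 and Cd3e at 29.5. The B-cell markers of its list, Cd79a and Ms4a1, were at 0 and Cd79b was at 4.66, so that its values do not cover B cells. A cluster of 1956 myeloid cells stayed unnamed and is left out of the orders below; it held 1407 ± 203 CPM of Cd9 (1197 to 1688), 2724 ± 327 of Cd81 (2278 to 3192) and 799 ± 330 of Cd63 (533 to 1393; n = 8), each range overlapping that of the microglia-like libraries. Cd9, which organises adhesion proteins at the surface, was at 1595 ± 181 CPM in microglia-like cells (n = 8), 1073 ± 268 in neutrophil-like (n = 7) and 406 ± 25.1 in dendritic cell-like cells (n = 7). The microglia-like libraries, at 1416 to 1853 CPM, lay above the 1200 CPM of the single library with ependymal-like cells, which came next by mean among the named classes. The neutrophil-like range of 765 to 1506 CPM held that library and overlapped the microglia-like range.

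Cd81, a partner of immunoglobulin superfamily proteins such as Igsf8, was at 2779 ± 371 CPM in microglia-like cells, 1204 ± 421 in mural-like (n = 6), 883 ± 150 in endothelial-like (n = 8) and 29.8 ± 20.2 in lymphoid-like cells (n = 2). Microglia-like libraries (2243 to 3234 CPM) lay above the next named class by mean, astroglial-like cells of 1 library at 2195 CPM. They overlapped border-associated macrophage-like libraries (937 to 2292 CPM). The order below the astroglial-like class, border-associated macrophage-like, ependymal-like, mural-like and endothelial-like, consisted of neighbours whose ranges overlapped.

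Cd63 differed among vascular and among myeloid classes. It was at 972 CPM in the single library of ependymal-like and at 842 in that of astroglial-like cells, at 760 ± 69.4 CPM in border-associated macrophage-like (n = 5), 739 ± 225 in microglia-like and 714 ± 56.1 in mural-like cells, whose ranges overlapped, and at 409 ± 50.5 in neutrophil-like cells. The microglia-like mean pools conditions that differ (532 in Ctrl, 770 in D0 and 1005 CPM in D2), and D2-2, at 1117 CPM, lay above the ependymal-like library. Dendritic cell-like cells had 131 ± 47.2 CPM, monocyte-like cells (n = 7) 101 ± 75.5 and endothelial-like cells 47.7 ± 19.9. Mural-like libraries (657 to 789 CPM) and endothelial-like libraries (26.3 to 73.4 CPM), both vascular, did not overlap.

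Cd37 and Cd53, the members best known from leukocytes, were held by the classes of the blood lineage. Cd53 was at 510 ± 156 CPM in microglia-like, 459 ± 111 in border-associated macrophage-like, 384 ± 163 in neutrophil-like, 343 ± 123 in monocyte-like, 301 ± 25.0 in lymphoid-like and 237 ± 32.8 in dendritic cell-like cells, with overlapping neighbours except between the last 2. The class with the next highest level, ependymal-like cells of 1 library, had 77.2 CPM, and endothelial-like cells had 13.1 to 72.8. Cd37 was at 374 ± 103 CPM in microglia-like, 301 ± 29.2 in lymphoid-like, 293 ± 54.1 in border-associated macrophage-like and 248 ± 54.0 in neutrophil-like cells, whose ranges overlapped. Monocyte-like (93.1 ± 38.1) and dendritic cell-like cells (85.4 ± 34.4) lay below these, so that Cd37, unlike Cd53, was lower in every monocyte-like library (31.9 to 148 CPM) than in any neutrophil-like one (189 to 333 CPM). The microglia-like means pool conditions: Cd37 was at 490 CPM in Ctrl, 323 in D0 and 274 in D2, and Cd53 at 661, 456 and 365. For Cd37, every Ctrl microglia-like library lay above all lymphoid-like, border-associated macrophage-like and neutrophil-like libraries.

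Cd82, a tetraspanin studied as a suppressor of metastasis, was at 134 ± 24.4 CPM in lymphoid-like, 99.7 ± 41.2 in neutrophil-like and 80.5 ± 27.5 in microglia-like cells, and its neighbours overlapped down to the dendritic cell-like class at 36.1 to 62.7 CPM. Endothelial-like cells were at 20.1 ± 5.52 CPM. Other classes outside the blood lineage held more: mural-like cells 56.9 ± 23.8 CPM and ependymal-like cells of 1 library 69.5, both within the microglia-like span of 49.5 to 121 by mean. That span pools conditions, with means of 111 CPM in Ctrl, 66.1 in D0 and 56.9 in D2. Cd151, the partner of laminin-binding integrins, was highest in the vascular classes. It was at 236 ± 72.3 CPM in endothelial-like and 195 ± 45.4 in mural-like cells, whose ranges overlapped, against 54.0 ± 17.9 in microglia-like and 9.88 ± 8.33 in neutrophil-like cells.

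**Figure D1:**
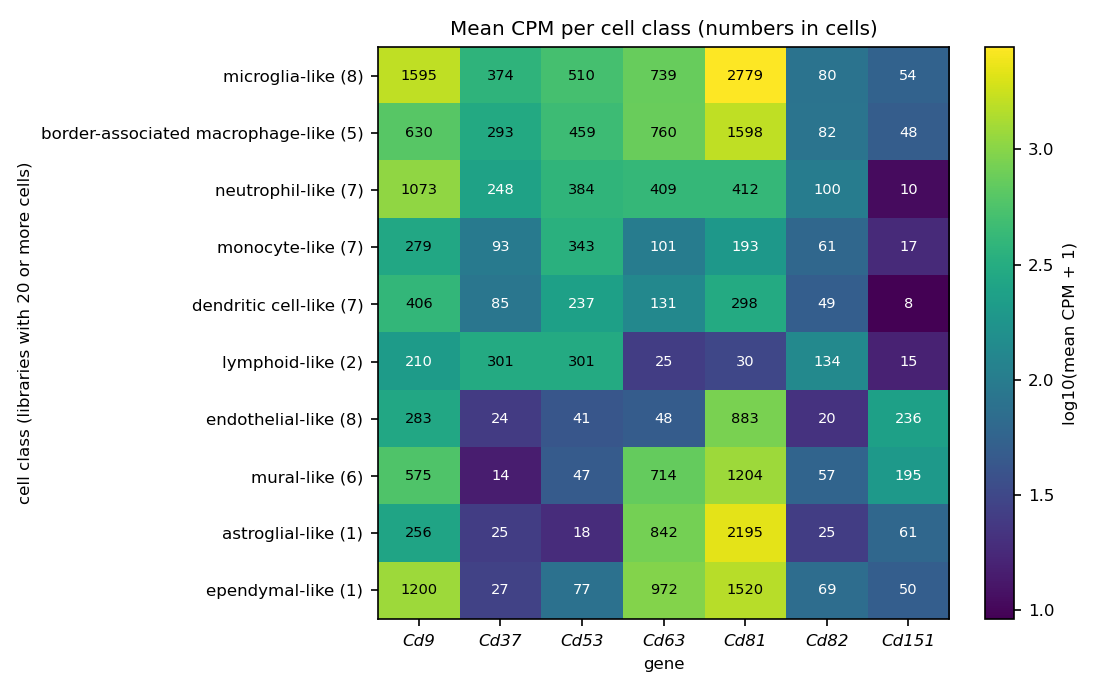
Mean CPM of each member (columns) in each cell class (rows), over the number of libraries given in brackets; colour is log10 of the mean plus 1. Cd53 is at 77.2 CPM or less in the classes outside the blood lineage, whereas Cd151 reaches 236 CPM in endothelial-like cells.

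Free RNA from microglia can reach other droplets, so each level was set beside those of Cx3cr1, P2ry12 and Tmem119, microglial genes, in the same libraries. Empty droplets were not examined, and free RNA was not told apart from doublets or misplaced cells. Background below therefore means a share of the microglia-like level like that of these genes, whatever its source. In endothelial-like cells these 3 genes stood at a mean of 7.47%, 6.12% and 7.64% of their microglia-like level, and Cd37, Cd53 and Cd63 at 6.76%, 8.11% and 6.72% of theirs; the levels of these 3 members in endothelial-like cells are thus those of the background. Cd151, at 446% of its microglia-like level, Cd81, at 31.8%, and Cd9, at 17.8%, lay above it. In neutrophil-like cells the microglial genes were at 13.5%, 14.3% and 14.1%, and Cd81 at 14.0%, whereas Cd9 was at 66.1% and Cd63 at 56.3%. Cd81 in neutrophil-like cells is therefore read as background. Cd151 there, at 17.2% (2.07 to 29.1% by library), lay within the library range of Tmem119 (1.69 to 33.8%) and cannot be told from background. In border-associated macrophage-like cells the microglial genes were at 52.3%, 36.5% and 56.1%, far above their shares in endothelial-like cells. Microglia placed in this class and expression by its own cells were not told apart. Cd9 (37.4%) and Cd81 (55.7%) were no higher, so that the levels of both in that class cannot be read. Cd63 was at 117%, Cd53 at 87.2% and Cd37 at 75.7%, and the part of microglia in these levels was not tested.

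The other classes were read in the same way. In ependymal-like cells the microglial genes were at 10.3%, 10.9% and 21.1%, and Cd37 (7.43%) and Cd53 (15.6%) did not exceed this range, whereas Cd63 (160%), Cd9 (64.7%) and Cd81 (48.6%) did. In astroglial-like cells they were at 5.29%, 4.69% and 4.75%, with Cd53 at 3.64% and Cd37 at 6.80%, and in mural-like cells at 5.08%, 6.42% and 7.04%, with Cd37 at 3.35% and Cd53 at 8.78%. Levels of Cd37 and Cd53 in these 3 classes are therefore at or near background. Cd82 lay above it in them, at 111% in ependymal-like, 39.5% in astroglial-like and 74.4% in mural-like cells. Lymphoid-like cells had the microglial genes at 4.30%, 0% and 2.62%, and Cd63 (4.14%) and Cd81 (0.979%) no higher, but Cd37 at 90.8% and Cd53 at 62.1%. In monocyte-like cells Cx3cr1 was at 16.3%, and P2ry12 and Tmem119 were at 5.24% and 4.87%. Cd81 (6.58%) lay near P2ry12 and Tmem119. Cd63 (13.1%) and Cd9 (16.5%) lay above P2ry12 and Tmem119 but not clearly above Cx3cr1, a gene through which the study also labelled monocytes. Whether the levels of Cd63 and Cd9 there are background thus depends on the gene set beside them. In dendritic cell-like cells the microglial genes were at 10.7%, 6.95% and 7.23%, with Cd81 (10.8%) at the upper end and Cd63 (17.4%) and Cd9 (26.1%) above it.

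The genes whose class means followed each member most closely were found by Pearson's r of log2(CPM + 10) over 13 points, the class means with microglia-like cells split by condition, among 4268 genes with at least 100 CPM in 1 class. The points share libraries and depth, and no test was made. Cd53 went with Vav1 (r = 0.985), a signalling protein of blood cells, Apbb1ip (0.974) and Arpc4 (0.971), and Cd37 also with Vav1 (0.951), then Bin2 (0.938) and Itgam (0.936), which encodes the CD11b of the sort. Cd9 went with Timp2 (0.950), Gpr84 (0.937) and Lpcat2 (0.908), Cd81 with Pmp22 (0.965), Arhgap5 (0.942) and Ctsf (0.937), and Cd63 with, among others, Serpine2 (0.887) and Usp2 (0.884). Cd151 went with Apbb2 (0.950), Rab12 (0.936) and Tnfaip1 (0.934). Cd82 had the weakest likenesses, with Ikzf1, a transcription factor of lymphocytes, at 0.788.

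The main question was how the members changed in microglia-like cells of D0 and D2 mice. Different clusters held most of these cells in each group: m1 and m2, the largest in Ctrl, held 6324 of 8915 Ctrl cells (70.9%), 520 of 8623 D0 cells (6.03%) and 56 of 4603 D2 cells (1.22%). The largest in D0, m3 and m5, held 41.8% of D0 cells, and the largest in D2, m3 and m4, held 48.7% of D2 cells, beside 2.85% and 3.49% of Ctrl cells. Values within clusters are given further on. Cd63 was at 510, 524 and 562 CPM in the Ctrl libraries, at 941, 761 and 608 in D0 and at 892 and 1117 in D2. Every D0 and D2 library used lay above every Ctrl library. It rose by 0.73 ± 0.16 on the log2 scale at D0 (SE; 1.66-fold; adjusted p = 0.0132) and by 1.03 ± 0.18 at D2 (2.04-fold; adjusted p = 0.00377). D2-3, in contrast, had 276 CPM, below every Ctrl library.

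Cd82 was at 89.3, 121 and 121 CPM in Ctrl, at 70.7, 65.0 and 62.6 in D0 and at 64.2 and 49.5 in D2. It fell by 0.55 on the log2 scale at D0 (SE 0.16; adjusted p = 0.0418) and by 0.86 at D2 (SE 0.19; adjusted p = 0.0110), with no overlap between treated and Ctrl libraries. The D0 call is near the threshold: it was lost without any 1 of Ctrl-2, Ctrl-3, D0-1, D0-2, D0-3 and D2-1 (-0.57 to -0.45), and with the replicate number as a block (-0.54; adjusted p = 0.0533). The D2 call was lost without D2-2 (-0.71).

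Cd37 was at 439, 505 and 527 CPM in Ctrl, at 307, 300 and 363 in D0 and at 266 and 282 in D2, again with no overlap with Ctrl by CPM. The fit also scaled the libraries by TMM factors, 1.13 in Ctrl-1, the lowest Ctrl library, and 0.933 in D0-3, the highest D0 library. On that scale the D0 and Ctrl libraries need not stay apart. The difference at D0, -0.40 (SE 0.13; adjusted p = 0.0621), missed the threshold in this fit and passed it with the replicate number as a block (-0.40; SE 0.093; adjusted p = 0.0199). At D2 it fell by 0.73 (SE 0.15; adjusted p = 0.00872); without D2-1 that call was lost (-0.63).

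Cd53 was at 488, 764 and 730 CPM in Ctrl, at 398, 478 and 493 in D0 and at 350 and 379 in D2. Its D0 range overlapped that of Ctrl and its D2 range did not. The difference was -0.34 at D0 (SE 0.20; adjusted p = 0.260), and at D2 it fell by 0.76 (SE 0.22; adjusted p = 0.0432). That D2 call was lost without any 1 of Ctrl-2, Ctrl-3, D0-2, D0-3, D2-1 and D2-2 (-0.85 to -0.62).

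Cd151 was at 54.1, 79.1 and 80.4 CPM in Ctrl, at 38.2, 47.7 and 58.9 in D0 and at 36.7 and 36.5 in D2. The difference was -0.36 at D0 (SE 0.21; adjusted p = 0.259), and at D2 it fell by 0.86 (SE 0.24; adjusted p = 0.0363). The D2 call was lost without any 1 of Ctrl-2, Ctrl-3, D0-2, D2-1 and D2-2 (-0.89 to -0.75).

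Cd9 was at 1519, 1781 and 1788 CPM in Ctrl, at 1431, 1514 and 1853 in D0 and at 1416 and 1457 in D2, and Cd81 at 2430, 3137 and 3234, at 2756, 2835 and 3126, and at 2243 and 2469. Neither passed the test. For Cd9 the differences were 0.12 at D0 (SE 0.14; adjusted p = 0.592) and -0.14 at D2 (SE 0.16; adjusted p = 0.595). For Cd81 they were 0.19 (SE 0.15; adjusted p = 0.410) and -0.21 (SE 0.17; adjusted p = 0.408).

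**Figure D2:**
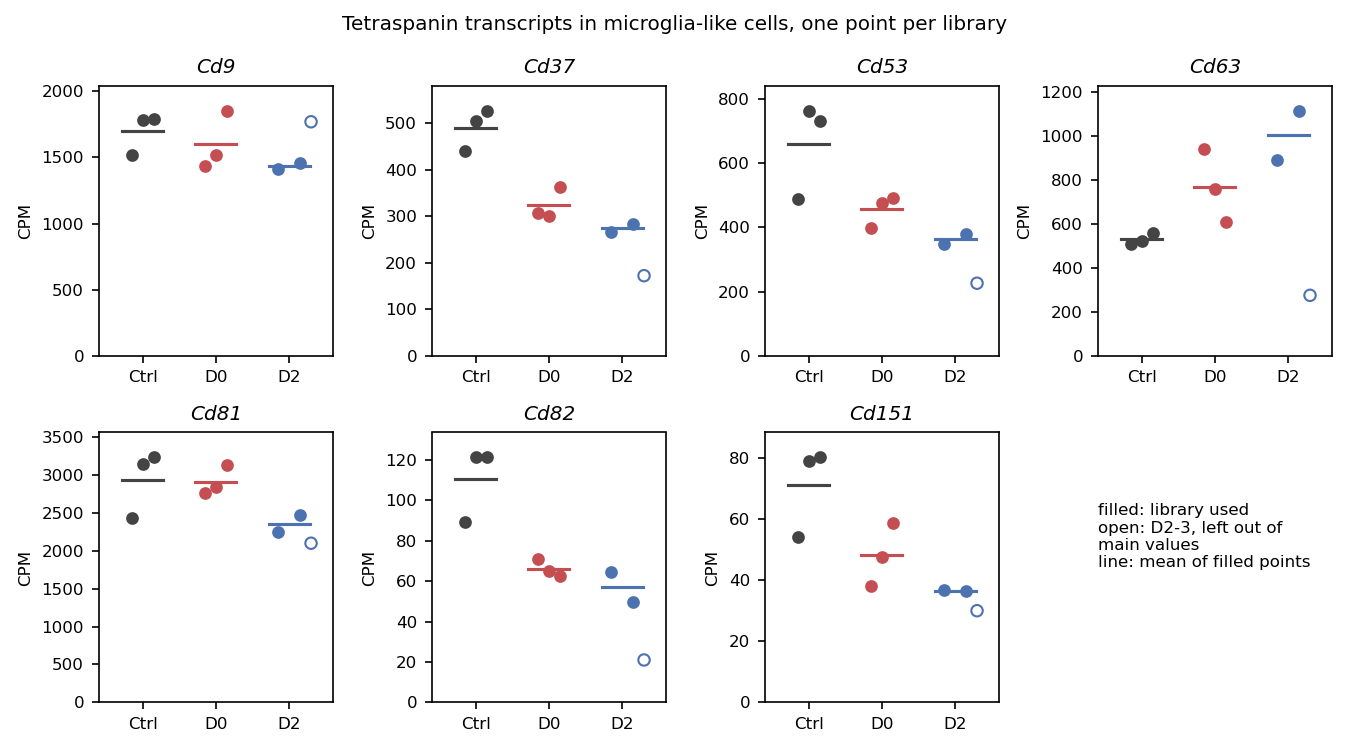
CPM of each member in the microglia-like cells of each library (filled points), with the group mean as a line and D2-3 as an open point. Cd63 is above its Ctrl range of 510 to 562 CPM in the 5 D0 and D2 libraries used and at 276 in D2-3, while Cd37 and Cd82 are below their Ctrl ranges in all 6.

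In all, 2 of 7 members were called at D0, Cd63 higher and Cd82 lower, where 19.7% of the 12402 genes tested were called, 12.2% higher and 7.43% lower. At D2, 5 of 7 were called, Cd63 higher and Cd37, Cd53, Cd82 and Cd151 lower, where 18.5% of all genes were, 10.8% higher and 7.7% lower. By CPM, D0 and Ctrl libraries did not overlap for 3 members, as for 48.4% of all genes, and D2 and Ctrl libraries for 6, as for 52.7%. CPM leave out the TMM factors of the fit (0.897 in D0-2 to 1.13 in Ctrl-1), and overlap was not counted on that scale. The median log2 fold change of the members was -0.34 at D0 and -0.73 at D2, beside -0.05 and -0.03 over all genes. The comparisons share the 3 Ctrl libraries. All adjusted p-values come from edgeR's quasi-likelihood test over all genes tested, with TMM scaling. With library totals in place of TMM, which is the scale of the CPM above, the median of all genes at D0 moved from -0.05 to -0.26, Cd37 (-0.60) and Cd53 (-0.53) were also called lower at D0, and Cd9 (-0.084) and Cd81 (-0.014) changed sign without being called. Over all genes, that scaling turned 1519 higher and 922 lower calls at D0 into 1145 and 2681; at D2, 1342 and 955 calls became 1125 and 1522, and the same 5 members were called.

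Between D2 and D0 no member was called (0 of 7), and neither was any of the 12402 genes (0%). At an unadjusted p under 0.05, 847 genes passed in edgeR, Cd81 (-0.40) and Cd37 (-0.34) among them; DESeq2 called 27 genes and no member. The 4 members that fell at D2 had differences from D0 of -0.50 to -0.31 and Cd63 one of 0.29 (SE 0.18), each with an adjusted p of 0.699 or more.

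Among the Ctrl libraries, Ctrl-1, the one of version 3.0.2, was the lowest for all 7 members. The share of all genes with this order was not counted. In D2 the order was otherwise: D2-3, of version 3.1.0, lay below the other D2 libraries for every member but Cd9. With 1 Ctrl library of version 3.0.2, the version cannot be told from that library itself. The version 3.1.0 libraries used are Ctrl only, so with the version as a term in the fit Ctrl-1 alone sets the Ctrl level. Cd63 was then higher by 0.87 at D0 and 1.16 at D2. No fall was called any longer: Cd82 was at -0.15 at D0 and -0.47 at D2, Cd37 at -0.16 and -0.50, Cd53 at 0.19 and -0.24 and Cd151 at 0.12 and -0.38. Cd81 was then at 0.54 at D0 and was called higher there. Within the 6 libraries of version 3.0.2, which leaves the same 1 Ctrl library, Cd63 was at 0.89 at D0 and 1.19 at D2. Both settings thus take their Ctrl level from Ctrl-1 and are not separate checks of Cd63. Thus the falls of Cd37, Cd53, Cd82 and Cd151 and the version of the software cannot be told apart.

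**Figure D3:**
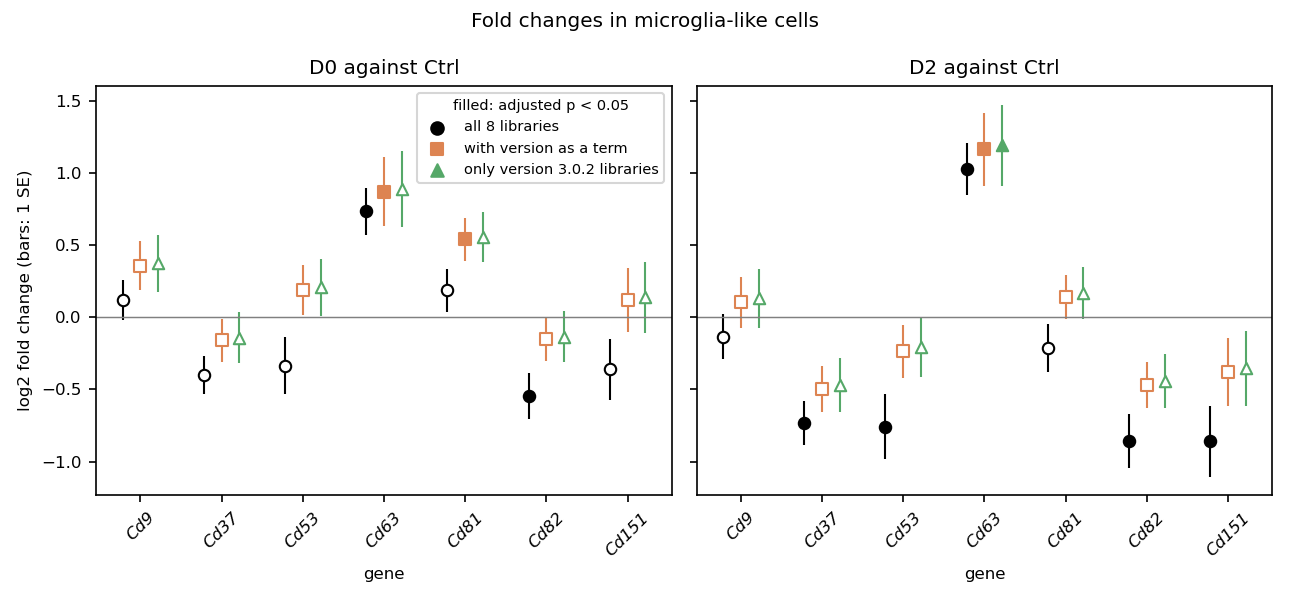
Log2 fold change ± SE of each member in microglia-like cells at D0 (left) and D2 (right) against Ctrl, from all 8 libraries, with the software version in the fit, and from the version 3.0.2 libraries alone; filled symbols had an adjusted p under 0.05. Cd63 lies between 0.73 and 1.19 in all 6 fits, whereas the lower values of the other members move towards 0 or above it. Both version settings take the Ctrl level from Ctrl-1 alone.

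With D2-3 as a further D2 library, Cd63 was not called at D0 (0.75; adjusted p = 0.382) or D2 (0.70; adjusted p = 0.252), Cd82 (-1.12) and Cd37 (-0.82) were the members called at D2, and none was called at D0. Calls were fewer over all genes too: 499 of 12209 at D0 and 1299 at D2, against 2441 and 2297 of 12402 without D2-3. D2-3 had 172 CPM of Cd37, 226 of Cd53 and 21.0 of Cd82, each below the other D2 libraries, 1768 of Cd9, above them, and the mitotic and microglial marker levels given above.

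Markers of other cell types moved in the same libraries. The summed level of 9 border-associated macrophage markers in microglia-like cells was 225 to 252 CPM in Ctrl libraries and lower in D0 (127 to 162) and D2 (131 to 142), and that of 10 monocyte markers 7.17 to 8.64, 9.21 to 16.7 and 14.6 to 26.6. The 12 microglia markers summed to 30676 to 36132 CPM in Ctrl libraries, but to 22206 to 24068 in D0 libraries and 18649 to 19472 in D2 libraries. Beside 532 CPM of Cd63 in Ctrl microglia-like cells, monocyte-like cells held 101 and neutrophil-like cells 409. Border-associated macrophage-like cells held 760, mural-like cells 714 and unnamed cells 799, and the other classes are given above. The part of other cell types in the rise and in the falls was not tested.

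The share of microglia-like cells with a UMI depends on the mean level and on the depth. A cell without a UMI may still hold the transcript, so the share does not count the cells that hold it. With each cell thinned to 2000 UMIs, Cd63 was found in 57.5 to 61.0% of Ctrl, 62.4 to 76.1% of D0 and 75.0 to 80.0% of D2 cells, by library, beside 1.85 to 9.30% of endothelial-like cells, its background class. Without thinning the shares were 81.4 to 89.7%, 91.0 to 93.3% and 88.2 to 90.2%, at median depths of 6466 to 7857, 5323 to 10440 and 5659.5 to 6891 UMIs. Cd37 was found in 59.4 to 63.9% of thinned Ctrl, 45.4 to 49.9% of D0 and 41.0 to 46.5% of D2 cells, and Cd53 in 62.4 to 78.6%, 57.0 to 62.2% and 51.3 to 56.3%. Endothelial-like cells had up to 9.38% for Cd37 and 12.9% for Cd53. Cd82 was found in 16.6 to 22.7%, 11.8 to 14.3% and 11.5 to 12.4%, and Cd151 in 10.7 to 15.6%, 7.66 to 10.5% and 7.52 to 8.36%. Cd9 (88.4 to 94.6%) and Cd81 (96.8 to 99.6%) were found in nearly every thinned cell. The thinning left out 473 Ctrl, 320 D0 and 400 D2 microglia-like cells that were shallower.

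Within the microglia-like cells, Cd63 varied between clusters. Its mean levels were lowest in the mitotic cluster m7, at 369 CPM, and highest in m4 (led by Chst2, Fam26f and Abca1) at 1092 and m3 (led by Il1b and Il1a) at 1051. These means pool different sets of libraries and conditions. In Ctrl-1, m4 was at 697 CPM and m9 at 1190. In the 5 D0 and D2 libraries used, mitotic cells had 281 to 434 CPM of Cd63 and the other microglia-like cells 666 to 1257, so that the level in mitotic cells was 0.335 to 0.449 of that in the others in each library. Cd37 (0.690 to 0.775), Cd82 (0.486 to 0.766), Cd53 (0.738 to 0.881) and Cd151 (0.566 to 0.871) were also lower in mitotic cells in 5 of 5 libraries. The share of all genes that were lower in mitotic cells in each of these libraries was not counted. Cd81 (0.916 to 1.05) and Cd9 (0.850 to 1.11) were lower in some libraries and higher in others. No Ctrl library had 20 cells in the mitotic cluster, and without that cluster the log2 fold change of Cd63 was 0.89 at D0 and 1.19 at D2, called in both. The falls of Cd82 at D0 (-0.45; adjusted p = 0.112) and of Cd53 (-0.70; adjusted p = 0.0786) and Cd151 (-0.76; adjusted p = 0.0792) at D2 lost their calls without it, whereas Cd37 (-0.65; adjusted p = 0.0262) and Cd82 (-0.75; adjusted p = 0.0322) were still called lower at D2 by edgeR.

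Set side by side within clusters, Cd63 was higher in each D0 and D2 library with 20 cells than in each Ctrl library in m1, m2, m4, m10, m11 and m12. Of these, m4 had Ctrl-1 as its only Ctrl library, m2 had D2-1 as its only D2 library, and m1 and m11 had no D2 library. In m1, led by P2ry13, Sox4 and P2ry12, Cd63 was at 437 to 562 CPM in Ctrl and 756 to 812 in D0. In m12, led by interferon-induced genes such as Ifit3 and Isg15, it was at 450 and 456 in Ctrl, 632 to 745 in D0 and 878 and 1066 in D2. The reverse was seen in m9, led by Ccl12, Nes and the replication genes Mcm6 and Mcm5, with 1190 and 1261 CPM in Ctrl, 501 to 947 in D0 and 691 in D2-1. In m3 the 2 Ctrl libraries, at 966 and 1175 CPM, lay within the D0 range of 677 to 1378. In m5 and m8, D0-3 lay within the Ctrl range and the other D0 and D2 libraries lay above it. D0-3 was at 685 CPM in m5, where Ctrl was at 629 to 738. In m8 it was at 698 CPM, where Ctrl was at 603 to 789. Cd9 had its highest cluster mean in m9, at 2127 CPM, with 2039 and 3134 in Ctrl. These clusters were drawn from the same cells, and no test was made. How many of all genes lay apart in the same way within a cluster was not counted.

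**Figure D4:**
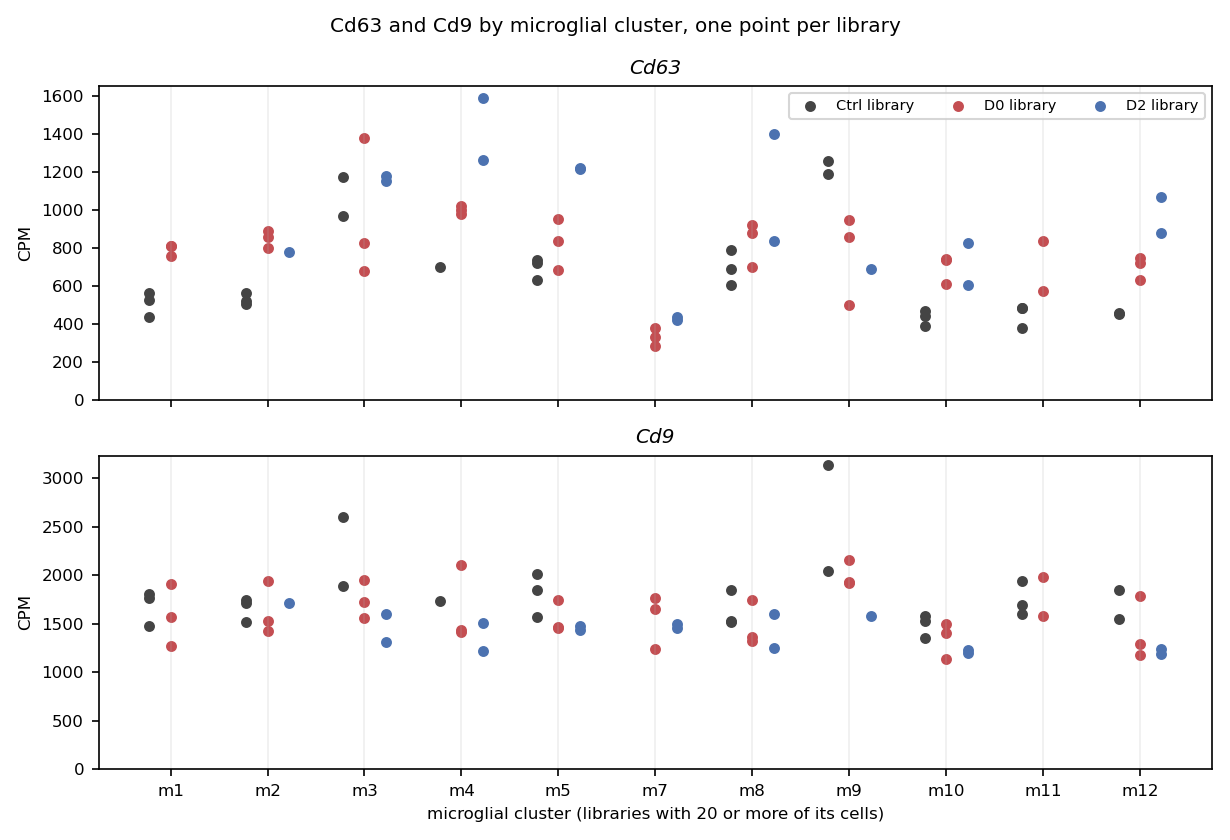
CPM of Cd63 (top) and Cd9 (bottom) in each microglial cluster with at least 20 cells of a library, one point per library, coloured by condition. Cd63 lies at 281 to 434 CPM in the mitotic cluster m7 and is higher in Ctrl than in D0 and D2 in m9 alone.

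MAC2, the galectin encoded by Lgals3, marks a population that the study followed. The study applied its rule, Lgals3 above the mean plus 1 SD, to all its kept clusters. Among all kept myeloid cells here, the rule gave 80 (Ctrl-1) to 479 (D0-2) MAC2+ cells a library. The values that follow cover only the microglia-like part of these, 717 cells in 8 libraries (13 to 178 each). They were compared with the other microglia-like cells of the same library, and all kept myeloid cells are given further on. Cd63 was at 1783, 927 and 1614 CPM in MAC2+ cells of Ctrl, 2150, 1515 and 1315 in D0 and 1812 and 1619 in D2, against 500 to 551, 591 to 863 and 829 and 1062 in the other cells. It was higher in MAC2+ cells in 8 of 8 libraries, by 1.22 on the log2 scale (SE 0.091; 2.32-fold; adjusted p = 2.30e-09). Cd9 was at 2493, 2443 and 3502 CPM in MAC2+ cells of Ctrl, 2424, 2318 and 2875 in D0 and 2028 and 2192 in D2, against 1367 to 1828 in the other cells of the 8 libraries. It was also higher in 8 of 8, by 0.72 (SE 0.060; 1.65-fold; adjusted p = 8.56e-09), and was the member whose MAC2+ and other sums did not overlap across libraries, as for 1.21% of all genes. D2-3 had the same direction for both, with 669 against 247 CPM of Cd63 and 2215 against 1736 of Cd9.

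Cd37 (-0.33; SE 0.071; adjusted p = 0.00163), Cd53 (-0.25; SE 0.063; adjusted p = 0.00585), Cd81 (-0.20; SE 0.051; adjusted p = 0.00670) and Cd82 (-0.43; SE 0.093; adjusted p = 0.00180) were lower in MAC2+ cells, each in 8 of 8 libraries, at 0.609 to 0.985 of the level in the other cells. Cd151 was higher in 4 libraries and lower in 4 (-0.03; SE 0.12; adjusted p = 0.895). Thus 6 of 7 members were called, where 19% of the 10681 genes tested were, 9.76% higher and 9.28% lower; the members' median was -0.20, that of all genes -0.03.

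**Figure D5:**
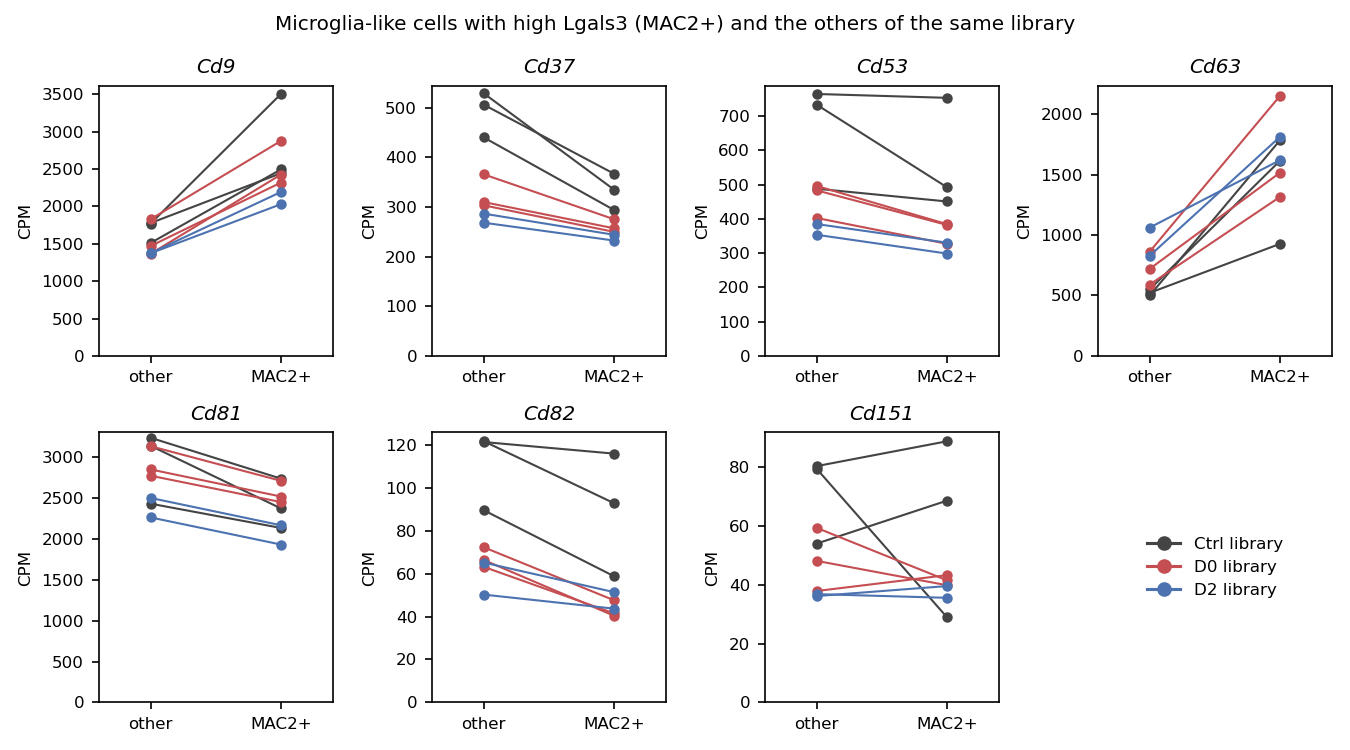
CPM of each member in MAC2+ microglia-like cells and in the other microglia-like cells of the same library, joined by a line per library and coloured by condition. The lines of Cd63 and Cd9 go up in 8 of 8 libraries and those of Cd37, Cd53, Cd81 and Cd82 go down in 8 of 8.

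Of all kept myeloid cells, which add monocyte-, dendritic cell- and border-associated macrophage-like cells and the unnamed cluster, MAC2+ cells were not called higher for Cd63 (0.16; adjusted p = 0.489) or Cd9 (-0.22; adjusted p = 0.174), and Cd81 fell by 1.18 and Cd37 by 1.01. The part of the cell class in this was not tested further. MAC2+ microglia-like cells had 4.90 CPM (Ctrl-1), 154 CPM (Ctrl-2) and none (Ctrl-3) of the 10 monocyte markers in Ctrl, where they numbered 13 to 27 cells, and 10.4 to 52.4 CPM in D0 and D2, against 7.19 to 26.9 in the other cells of the 8 libraries. Their 12 microglia markers summed to 15095 to 26724 CPM, below the other cells of each library. Median UMIs were 6918 to 14972 in MAC2+ and 5267 to 10362 in other cells. With cells thinned to 2000 UMIs and MAC2+ cells needing 2 UMIs of Lgals3, 1 to 41 cells a library remained. Cd63 was still called (1.01; adjusted p = 0.00998) and Cd9 was not (0.12; SE 0.30; adjusted p = 0.846). In that fit the median over all genes was -0.42, against -0.03 in the main fit, and 722 of the 885 calls were lower.

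In a fit of the MAC2+ difference by condition, chosen after the data were seen, no member was called (0 of 7) between D0 and Ctrl, where 0.206% of genes were, or between D2 and Ctrl, where 0.272% were. At D2 the difference of Cd63 was smaller than in Ctrl by 0.49 (SE 0.20; adjusted p = 0.501) and that of Cd37 nearer to 0 by 0.45 (SE 0.15; adjusted p = 0.367), both past an unadjusted p of 0.05 (0.0252 and 0.00737).

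The counts of the following lists stand beside the shares of all genes given above: 12.2% higher and 7.43% lower at D0, 10.8% and 7.7% at D2, and 9.76% and 9.28% in MAC2+ cells. Among the 24 other tetraspanins, 15 were tested. At D0, Tspan33 rose (0.60; adjusted p = 0.0125) and Upk1b (-0.85; adjusted p = 0.00476) and Tspan18 (-0.79; adjusted p = 0.00624) fell; Tspan17, called higher, and Tspan9, called lower, had under 20 CPM. At D2, 2 were called higher, among them Tspan32 (0.86; adjusted p = 0.0127), and 4 lower, among them Tspan18 (-1.41; adjusted p = 0.000648), Upk1b (-1.41; adjusted p = 0.000669) and Tspan3 (-0.50; adjusted p = 0.0203). The list's median was -0.20 at D0 and -0.34 at D2. Of the chromosomal neighbours, Tspan18 fell at D2, as did Cd82 beside it; Tspan32 rose at D2, where Cd81 was not called; and Tspan4, at -0.38 (adjusted p = 0.135), was not called where Cd151 was. In MAC2+ cells none of 14 tested was called higher and 5 were called lower, among them Tspan18 (-0.99; adjusted p = 0.00203), Upk1b (-0.94; adjusted p = 1.54e-05) and Tspan14 (-0.41; adjusted p = 0.000730).

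Of 24 genes that encode partners of tetraspanins at the membrane, 20 were tested, and at both D0 and D2 9 were called higher and 1 lower. With at least 20 CPM these were Ifitm3, an interferon-induced membrane protein (2.38 at D0 and 2.62 at D2), Vcam1, an adhesion receptor (1.52 and 1.61), and Igsf8, the partner of CD9 and CD81 (0.53 and 0.48; adjusted p = 0.0130 and 0.0319). In MAC2+ cells 9 of 17 were higher, with Itga5 (2.06), Cxcr4 (1.90), Vcam1 (1.08), Icam1 (0.59) and Igsf8 (0.34) above 20 CPM, and Itga6 (-0.40) and Adam10 (-0.26) were lower. The list's median was 0.36 at D0, 0.53 at D2 and 0.59 in MAC2+ cells.

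Of 29 genes of vesicle formation and release, the processes in which CD63 is used as a marker, 27 were tested, and 3 rose and none fell at D0, a share of higher calls near that of all genes. Chmp4b, an ESCRT-III subunit, was at 0.43 (adjusted p = 0.0137) and Rab11a, a GTPase of recycling endosomes, at 0.33 (adjusted p = 0.0422). At D2, 3 rose, among them Lamp1, a lysosomal membrane protein (0.65; adjusted p = 0.0212), and Chmp4b (0.41; adjusted p = 0.0255), and Rab31 fell (-0.50; adjusted p = 0.0128). In MAC2+ cells 7 of 26 were higher, led by Anxa2 (2.22), Arf6 (0.33), Chmp2a (0.33), Rab7 (0.29) and Sdcbp, the syntenin that binds tetraspanin partners in vesicle formation (0.28; adjusted p = 0.00215), and Rab35 (-0.36) and Rab31 (-0.34) were lower. The list's median was 0.01 at D0, 0.00 at D2 and 0.05 in MAC2+ cells, near that of all genes.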

How the data were processed

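Sorted CD11b+ brain cells of 3 Ctrl, 3 D0 and 3 D2 libraries were sequenced with the 10x 3′ v3 kit. The deposited values are UMI counts per gene and cell, which the authors made with Cell Ranger (3.0.2 or 3.1.0 per the file headers; the submitters' notes name 3.1.0) on mm10. Filters kept barcodes holding between 500 and 20000 UMIs and no fewer than 200 genes, with mitochondrial UMIs up to 10%. Cells were clustered in scanpy 1.11.5 without the tetraspanin genes (3000 variable genes, 10 components, 20 neighbours, Leiden resolution 0.6) and named by markers; a cluster of 1956 myeloid cells stayed unnamed. No doublets were removed; an alternative left out the top 4% of Scrublet scores. UMI counts were summed per library and class (at least 20 cells), given as CPM of the class total, and tested with edgeR 4.0.16 (quasi-likelihood, TMM, filter on low counts, Benjamini-Hochberg adjusted p under 0.05) over the 8 libraries, with the library as a block for MAC2+ cells; DESeq2 1.42.0 was an alternative. The fits were tested on simulated data. The members and gene lists were chosen with earlier results of these data known; every member, and every list gene that passed the test with at least 20 CPM, could be named, as could the 3 genes most like each member, of which 1 is not reported here. Same-numbered Ctrl and D0 libraries deviated together (r = 0.417, 0.200 and 0.177 over 12402 genes), although Ctrl-3 went more with D0-2 (0.298) than with D0-3; same-numbered D2 libraries had 0.0454 and 0.0753 with Ctrl and -0.129 and 0.262 with D0. By the rule of r over 0.1 in every pair, met for Ctrl and D0 alone, blocked values stand beside calls they change. Library depth is given with the results; precision is limited by 2 or 3 libraries per group.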

Additional observations from a re-analysis of the deposited data

How the results depend on the processing

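Of 651 comparisons of a member's fold change with an alternative, 573 kept direction and side of the threshold, 53 lost the call, 9 gained one and 16 changed direction. With the software version in the fit, 1432 genes were called at D0 and 1197 at D2, with 2 members at D0, both higher, and 1 at D2. Cd53 (0.19) and Cd151 (0.12) at D0 and Cd9 (0.10) and Cd81 (0.14) at D2 changed direction. With the 3.0.2 libraries alone, 734 and 753 genes and 0 and 1 members were called, and the same values were 0.21, 0.14, 0.13 and 0.17. With D2-3, 499 and 1299 genes and 0 and 2 members were called, Cd9 at D2 was 0.12 and Cd63 between D2 and D0 was -0.054. With thinned cells 1313 and 1424 genes, and without the mitotic cluster 1259 and 1436, were called, with 1 and 3 members in both settings. With library totals as scaling, chosen after seeing the data, 3826 genes and 4 members were called at D0, and Cd9 (-0.084) and Cd81 (-0.014) changed direction. Between D2 and D0, DESeq2 called 27 genes and the fit with no filter on low counts 41. For MAC2+ cells, the 3 Ctrl libraries alone gave 618 genes and 3 members, no library block 717 and 2, thinned cells 885 genes and all kept myeloid cells 5906, where Cd9 was -0.22. Leaving out 1 library at a time gave 1235 to 2511 genes and 1 to 4 members at D0, 1099 to 3068 and 2 to 5 at D2, 0 to 0 between D2 and D0, and 1353 to 2075 genes and 6 to 6 members for MAC2+ cells, where Cd151 ranged from -0.090 to 0.023 and changed direction without Ctrl-2 (0.013), D0-2 (0.023) or D0-3 (0.012). Cd63 was called in all 8 such fits at D0 (0.60 to 0.88) and D2 (0.82 to 1.24). With the replicate block, 2877 genes and 2 members were called at D0 and 2299 and 5 at D2; the block changed no other member's call than those of Cd37 and Cd82 at D0. In lymphoid-like cells, of which only 2 libraries had 20, D2-3 moved Cd9 to 252, Cd37 to 330 and Cd53 to 273 CPM, and a Leiden resolution of 1.0 moved Cd9 to 484, Cd53 to 365, Cd63 to 252 and Cd81 to 102 CPM. Thinning moved the percent of microglia-like cells with a UMI of Cd9 to 91.6, the mean over libraries, and likewise the share to 51.8% for Cd37, 63.4% for Cd53, 67.7% for Cd63, 15.6% for Cd82 and 10.7% for Cd151. Apart from thinning and scaling, the cause of these changes was not tested.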
